A study of Bos taurus with 6 samples.

Results

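Bovine miRNAs with identifiers between bta-miR-2286 and bta-miR-2489 were examined in extracellular vesicles (EVs) of cultured granulosa cells. An identifier was included when the number after bta-miR- lay in this range, with letters and the arm suffix ignored, and bta-miR-2478 was left out by the same rule. This gave 61 of the 512 miRNAs listed in every EV library (11.9%), chosen by number among the miRNAs in the files. Every miRNA in the files had at least 1 read in 1 or more libraries, so that identifiers of this range without any read are not among the 61. Of the 61 identifiers, 13 named the 5p arm, 10 the 3p arm and 38 no arm, and they belonged to 52 hairpins. The EVs came from spent medium of bovine granulosa cells, the follicular cells that surround the oocyte, aspirated from small antral follicles of 3 to 6 mm in slaughterhouse ovaries and cultured in medium with exosome-depleted fetal bovine serum. After a common 24 h at 37 °C, cultures were kept at 37 °C (control-EVs, 3 libraries) or exposed to heat stress at 42 °C (HS-EVs, 3 libraries) for another 24 h, and EVs were precipitated with ExoQuick-TC. The series names the 3 libraries of a group biological replicates, but the number of animals behind each was not given in the sources used here. In bulk RNA of EVs, fewer vesicles with a miRNA and less of it per vesicle cannot be told apart.

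As background, miRNAs are short RNAs cut from hairpin precursors, and they guide Argonaute proteins to messenger RNAs through a few bases near their 5′ end called the seed. Either side of a hairpin can give a mature miRNA, the 5p arm and the 3p arm, and one arm usually prevails. miRBase numbers miRNAs in the order of registration, and identifiers of this range were for the most part registered from deep sequencing of bovine tissues, so that many of them have no named counterpart in other mammals and little is known of their targets. Such entries are typically of low abundance compared with conserved families such as let-7. No mature sequences were used here, and the miRNAs are therefore described by name, arm and host gene.

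The deposited values are read counts normalized by the authors with the TMM method of edgeR. Within a library they rose in whole steps of its lowest non-zero value. This step was taken as 1 read, and the reads behind each value were recovered from it. The 6 libraries held 274434 to 2360980 recovered reads, of which bta-miR-1246 alone took 59.9% to 98.6%. What was left for other miRNAs was 76623, 235634 and 73569 reads for control-EVs (replicates 1, 2 and 3) and 34141, 123448 and 86705 reads for HS-EVs. The library of HS-EVs replicate 1 stood apart, with the most reads in total and the fewest on other miRNAs, and 1 read was worth 4.11 normalized counts there against 0.697 to 1.98 in the other 5 libraries. Of the markers chosen to check the source, all 7 granulosa cell miRNAs were in the files, with a summed level of 3189 to 4021 normalized counts in control-EVs and 2243 to 3554 in HS-EVs, and only bta-miR-212 was without a read in control-EVs. All 7 blood cell miRNAs (834 to 1623 normalized counts in control-EVs and 590 to 1101 in HS-EVs) and all 3 serum or liver miRNAs (12324 to 25525 and 7605 to 13719) also had reads in both groups.

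First it was asked how many of these miRNAs the EVs held. The 61 miRNAs took 726 reads over the 6 libraries, and most of them were at the edge of detection. At least 1 read was found for 25, 42 and 20 of the 61 in control-EVs (replicates 1, 2 and 3, the order used throughout) and for 21, 37 and 29 in HS-EVs, with a mean of 29.0 ± 11.5 in control-EVs and 29.0 ± 8.0 in HS-EVs (SD, n = 3). With 3 or more reads asked for, the numbers fell to 7, 20 and 7 in control-EVs and to 5, 14 and 12 in HS-EVs. The libraries with more reads outside bta-miR-1246 held more of these miRNAs, except that HS-EVs replicate 1, the library with the fewest such reads, held 1 more than control-EVs replicate 3. When the reads outside bta-miR-1246 of each library were thinned to the 34141 of HS-EVs replicate 1, the number expected with a read was 15.9, 17.6 and 13.9 for control-EVs, and 19.0 and 18.4 in HS-EVs replicates 2 and 3, beside the 21 of HS-EVs replicate 1. After this thinning every HS-EVs library lay above every control-EVs library, a comparison that was added after the data had been seen and is given without a test. The same thinning is not given for other miRNAs, and a trait of these 61 cannot be told from a shift of all miRNAs. Without thinning, the 61 were 7.40%, 10.3% and 6.33% of the miRNAs with a read in control-EVs. In HS-EVs they were 7.14%, 9.54% and 8.24%, and the groups overlapped.

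**Figure D1:**
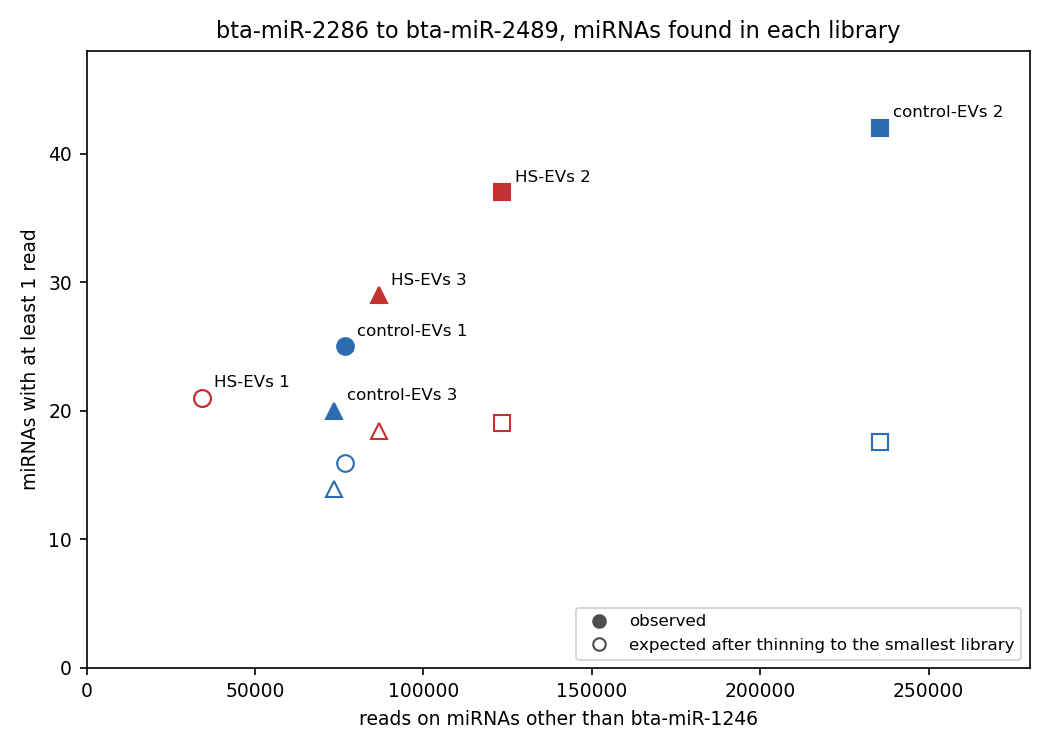
Number of miRNAs from bta-miR-2286 to bta-miR-2489 with at least 1 read (vertical axis) against the reads not taken by bta-miR-1246 (horizontal axis), for 3 control-EVs libraries (blue) and 3 HS-EVs libraries (red). Filled symbols are observed numbers, from 20 to 42, and open symbols the numbers expected after thinning to 34141 reads, from 13.9 to 21, where the single symbol of HS-EVs replicate 1 stands for both.

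Among the 61 miRNAs, 18 had a single read over all 6 libraries, 11 had 2 to 3 reads, 17 had 4 to 9, 10 had 10 to 29 and 5 had 30 or more. Only 10 (16.4%) had a read in every library, compared with 225 of the 451 other miRNAs (49.9%), and 20 (32.8%) had reads in 1 library alone, compared with 75 others (16.6%). The median was 4 reads over the 6 libraries for these miRNAs and 21 for the other miRNAs. The highest of them, bta-miR-2483-3p, ranked 134 of all 512 by mean normalized count. The study called a miRNA detected when 2 of 3 libraries reached a normalized count of 10. By this criterion, 4 were detected in control-EVs (bta-miR-2483-3p, bta-miR-2299-3p, bta-miR-2346 and bta-miR-2366) and 3 in HS-EVs (bta-miR-2483-3p, bta-miR-2346 and bta-miR-2387). In all, 5 of the 61 (8.20%) met the criterion in either group, against 199 of the other 451 (44.1%). Reads were confined to control-EVs for 9 miRNAs, 5 of them to replicate 2 alone, and to HS-EVs for 12. The share over all 512 is not given here. None of these 21 had more than 4 reads in all, and 18 of them had a single read, and a difference between the groups was not detectable at this depth.

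In summed abundance, the 61 miRNAs made up a very small part of the EV libraries. Their share of all recovered reads was 0.0209%, 0.0473% and 0.0211% in control-EVs and 0.00178%, 0.0266% and 0.0195% in HS-EVs, where the low share of HS-EVs replicate 1 goes together with its 98.6% on bta-miR-1246. Of the reads outside bta-miR-1246, they took 0.136%, 0.118% and 0.0788% in control-EVs and 0.123%, 0.109% and 0.126% in HS-EVs. The lowest and the highest of these had 95% Wilson intervals of 0.0610% to 0.102% and 0.112% to 0.164%, which cover counting error only. The mean was 0.111% ± 0.0291 in control-EVs and 0.119% ± 0.00877 in HS-EVs (SD, n = 3), and the HS-EVs libraries all lay within the range of the control-EVs libraries. Their summed normalized counts, 191, 194 and 115 in control-EVs and 173, 148 and 178 in HS-EVs, gave means of 166 ± 44.9 and 166 ± 15.6 (SD, n = 3). In the same libraries, 60 identifiers of the ruminant miR-2284 and miR-2285 family took 0.472% to 0.621% of reads outside bta-miR-1246, and 66 miRNAs numbered above 6000 took 1.07% to 2.90%. Each of these shares was above that of the 61 miRNAs in every library.

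A few miRNAs held most of these reads. The 5 most abundant by mean normalized count took 391 of the 726 reads (53.9%), and the first 10 took 509 (70.1%). bta-miR-2483-3p led in every library and took 186 reads (25.6%). Its hairpin lies within TENM1, which encodes a teneurin, a transmembrane protein of neuronal contacts. It had 64.2, 52.3 and 29.6 normalized counts in control-EVs (35, 75 and 15 reads) and 37.0, 31.9 and 37.5 in HS-EVs (9, 29 and 23 reads). The control-EVs libraries thus enclosed all HS-EVs libraries. The means were 48.7 ± 17.6 in control-EVs and 35.5 ± 3.09 in HS-EVs (SD, n = 3). The log2 fold change of HS-EVs over control-EVs, fitted with limma, was -0.38 with a standard error of 0.46 (limma adjusted p = 0.873). It ranged from -0.70 without control-EVs replicate 3 to -0.15 without control-EVs replicate 1. It was also the only one of the 61 with 3 or more reads in every library.

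The next 4 miRNAs had fewer reads and varied more. bta-miR-2299-3p, from a hairpin within B3GLCT, a glucosyltransferase gene of protein O-glycosylation, had 33.0, 15.3 and 3.95 normalized counts in control-EVs and 8.22, 7.70 and 11.4 in HS-EVs. The control-EVs libraries again enclosed all HS-EVs libraries, and the fitted log2 fold change was -0.49 ± 0.67 (SE, limma adjusted p = 0.886). It turned to 0.15 without control-EVs replicate 1 and was -1.24 without control-EVs replicate 3. bta-miR-2346, within ASPSCR1, whose product tethers GLUT4 vesicles, had 11.0, 25.8 and 5.93 normalized counts in control-EVs and 8.22, 11.0 and 16.3 in HS-EVs. Here, too, all HS-EVs libraries lay between control-EVs libraries, with a log2 fold change of -0.07 ± 0.57 (SE, limma adjusted p = 0.974), which ranged from -0.53 to 0.44 with each library left out in turn. bta-miR-2387, within the transcription factor gene GTF2IRD1, had 16.5, 5.58 and 1.98 in control-EVs and 4.11, 11.0 and 21.2 in HS-EVs, so that each group had high and low libraries. Its fitted log2 fold change was 0.66 ± 0.74 (SE, limma adjusted p = 0.873). It went from 0.046 without control-EVs replicate 3 to 1.32 without control-EVs replicate 1, and was -0.28 on reads scaled by all reads, where the median of all 512 miRNAs was -0.79. bta-miR-2366, within the microtubule-associated protein gene MAP1A, had 11.0, 10.5 and 1.98 normalized counts in control-EVs and 0, 6.60 and 14.7 in HS-EVs. No read of it was found in HS-EVs replicate 1, where 3 reads, taken as the floor in each library, amount to 12.3 normalized counts. Its log2 fold change of -0.59 ± 0.96 (SE, limma adjusted p = 0.892) became 0.56 without that library.

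The remaining 5 of the first 10 had 9 reads or fewer in each library, apart from 14 reads of bta-miR-2448-3p in control-EVs replicate 2. Their log2 fold changes were -0.09 for bta-miR-2483-5p, 0.45 for bta-miR-2431-5p, 0.42 for bta-miR-2431-3p, 0.46 for bta-miR-2448-3p and 0.70 for bta-miR-2403, all with standard errors of 0.44 or more and adjusted p-values between 0.873 and 0.960 from limma. On reads scaled by all reads, bta-miR-2387, both arms of bta-miR-2431, bta-miR-2448-3p and bta-miR-2403 turned negative, but so did the median log2 fold change of all 512 miRNAs, from 0.01 to -0.79, and these 5 all stayed above that median. By the same scaling, bta-miR-2483-3p was at -1.81, bta-miR-2299-3p at -1.67, bta-miR-2346 at -1.26, bta-miR-2366 at -0.96 and bta-miR-2483-5p at -1.27, all below that median. With DESeq2 size factors or with scaling to reads outside bta-miR-1246, bta-miR-2387, both arms of bta-miR-2431, bta-miR-2448-3p and bta-miR-2403 kept their sign, whereas bta-miR-2346 and bta-miR-2483-5p turned to 0.026 and 0.0059 with the latter scaling. The sign of bta-miR-2448-3p was not settled, since its mean was lower in HS-EVs (5.38 against 5.89 normalized counts) and its log2 fold change was -0.23 in edgeR's quasi-likelihood test, -0.23 in DESeq2 and -0.64 without control-EVs replicate 1.

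**Figure D2:**
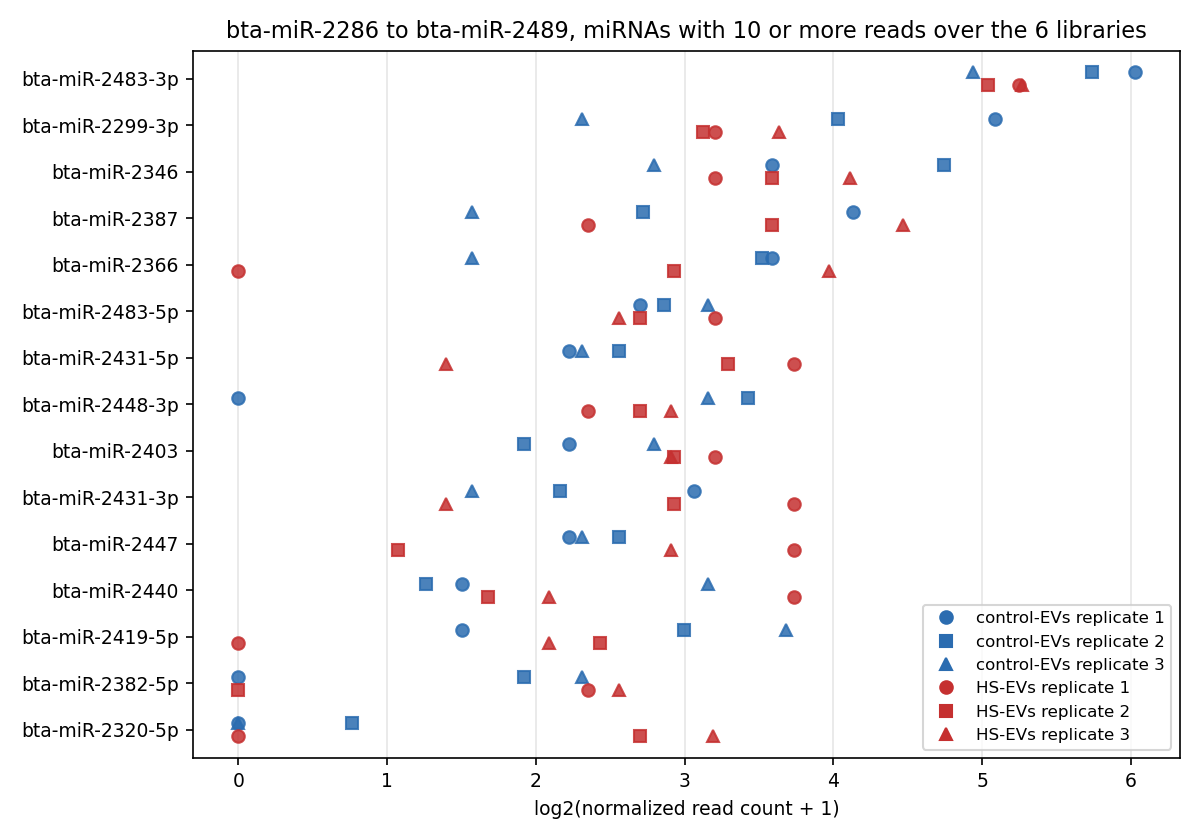
log2(normalized read count + 1) in each library (horizontal axis) for the 15 of the 61 miRNAs with 10 or more reads over the 6 libraries, ordered by mean normalized count. Blue symbols are control-EVs, red symbols HS-EVs, and shapes mark the replicate number. A value of 0 means no read, and the groups overlapped in all miRNAs shown except bta-miR-2403.

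Both arms were measured for 9 hairpins, and the share of a hairpin's reads on its 3p arm does not depend on the scaling of a library. In bta-miR-2483, the 3p arm took 186 of 212 reads (87.7%, 95% Wilson interval 82.6% to 91.5%). By library the share was 92.1%, 89.3% and 78.9% in control-EVs and 81.8%, 85.3% and 88.5% in HS-EVs, with means of 86.8% ± 6.93 and 85.2% ± 3.32 (SD, n = 3; p = 0.7 in a two-sided exact permutation test). The 3p arm also led in bta-miR-2299, with 58 of 64 reads (90.6%, 81.0% to 95.6%), whereas the arms of bta-miR-2431, from a hairpin within a long noncoding RNA gene, were close to even, with 20 of 43 reads on the 3p arm (46.5%, 32.5% to 61.1%). For bta-miR-2299 the share was 94.7%, 91.7% and 100% in control-EVs and 66.7%, 87.5% and 87.5% in HS-EVs. All control-EVs libraries lay above all HS-EVs libraries (p = 0.1 in a two-sided exact permutation test, which is the lowest value 3 libraries against 3 can give, and 0.3 after Benjamini-Hochberg adjustment over the 3 hairpins with reads in every library). In HS-EVs this rests on 3 reads of the 5p arm, 1 in each library. The share of 100% came from 2 reads on both arms and that of 66.7% from 3. The pooled shares were 93.3% (82.1% to 97.7%) in control-EVs and 84.2% (62.4% to 94.5%) in HS-EVs. Their intervals pool reads over libraries and do not test a difference. For bta-miR-2431 the mean share was 47.2% ± 17.3 in control-EVs and 47.6% ± 4.12 in HS-EVs (SD, n = 3; p = 1.0 in a two-sided exact permutation test). The other 6 hairpins had 5 to 11 reads on both arms together. The 5p arm had 10 of the 11 reads of bta-miR-2382, the 3p arm 7 of the 8 reads of bta-miR-2411, 6 of the 7 of bta-miR-2373 and 5 of the 6 of bta-miR-2388, and the arms were closer in bta-miR-2454, from a hairpin within the DNA methyltransferase gene DNMT1 (6 of 11 on the 3p arm), and in bta-miR-2397 (2 of 5).

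**Figure D3:**
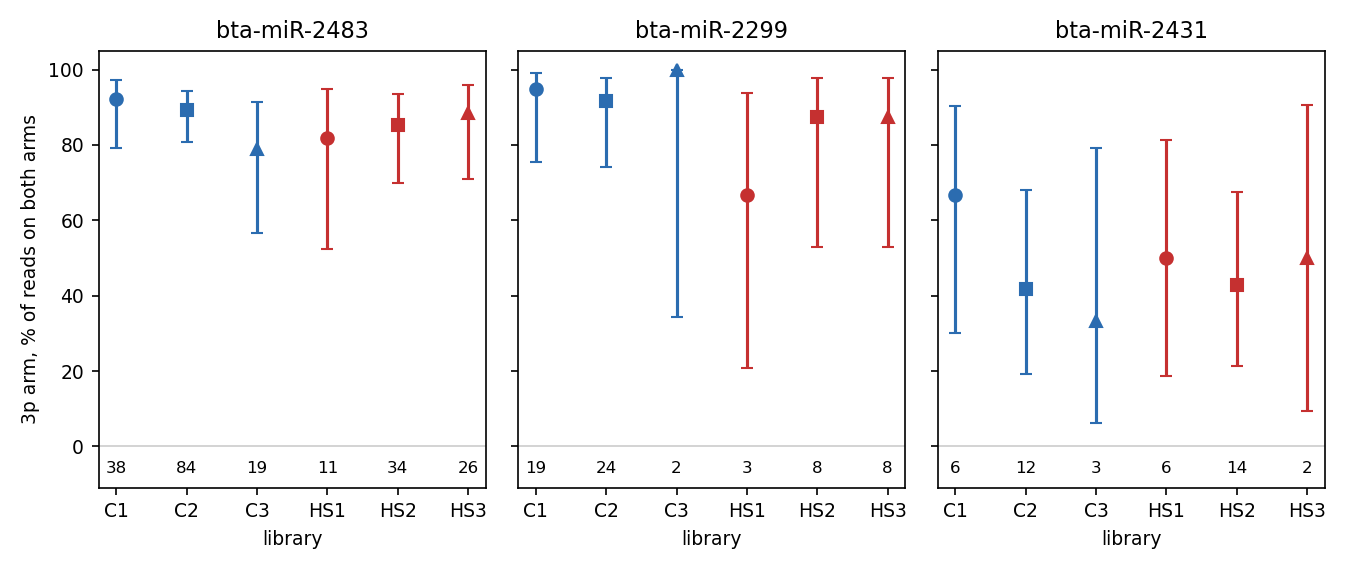
Share of a hairpin's reads on its 3p arm in percent (vertical axis) in control-EVs replicates 1 to 3 (C1 to C3, blue) and HS-EVs replicates 1 to 3 (HS1 to HS3, red), with 95% Wilson intervals and the reads on both arms printed below each point. The 3p arm took 78.9% to 92.1% in bta-miR-2483 and 33.3% to 66.7% in bta-miR-2431.

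The comparison of HS-EVs with control-EVs asked whether heat stress of the cells went together with other levels of these miRNAs in EVs. All 512 miRNAs were put into one limma fit on log2(normalized count + 1), a scale that understates the change of miRNAs with few reads. For EVs, the threshold of the study was an adjusted p-value up to 0.3 and a log2 fold change of at least 1, either way. In limma, none of the 61 reached it, and no other miRNA did either (0.0% of the 512). The study, which used edgeR, reported miRNAs past it in these EVs, none of them from this range. On recovered reads, edgeR's quasi-likelihood test called 0 of the 61 and 3 of the 512 (0.586%), and DESeq2 called 0 of the 61 and 0 of the 512 (0.0%). The adjusted p-values of the 61 lay between 0.870 and 0.988 from limma. Of the 61, 34 had a log2 fold change above 0 and 27 below, beside 50.0% above 0 among all 512, and their median was 0.10 beside 0.01. With each library left out, 26 to 40 were above 0. On reads scaled by all reads, 22 were above 0, beside 20.9% of the 512, and the median was -0.24 beside -0.79. For the 21 miRNAs with reads in a single group, the fitted value depends on the pseudocount. An unadjusted p-value of 0.05 or less from limma was found for 1 of the 61 (1.64%), beside 4.88% of the 512, and it was lower in HS-EVs, beside 2.15% of the 512 in that direction. The number was 3 without control-EVs replicate 3, without HS-EVs replicate 2 or without HS-EVs replicate 3, and 1 without each of the other libraries, and the miRNAs behind it were not the same throughout. The shares over all 512 in these fits are not given here, so that no rise above them can be read.

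**Figure D4:**
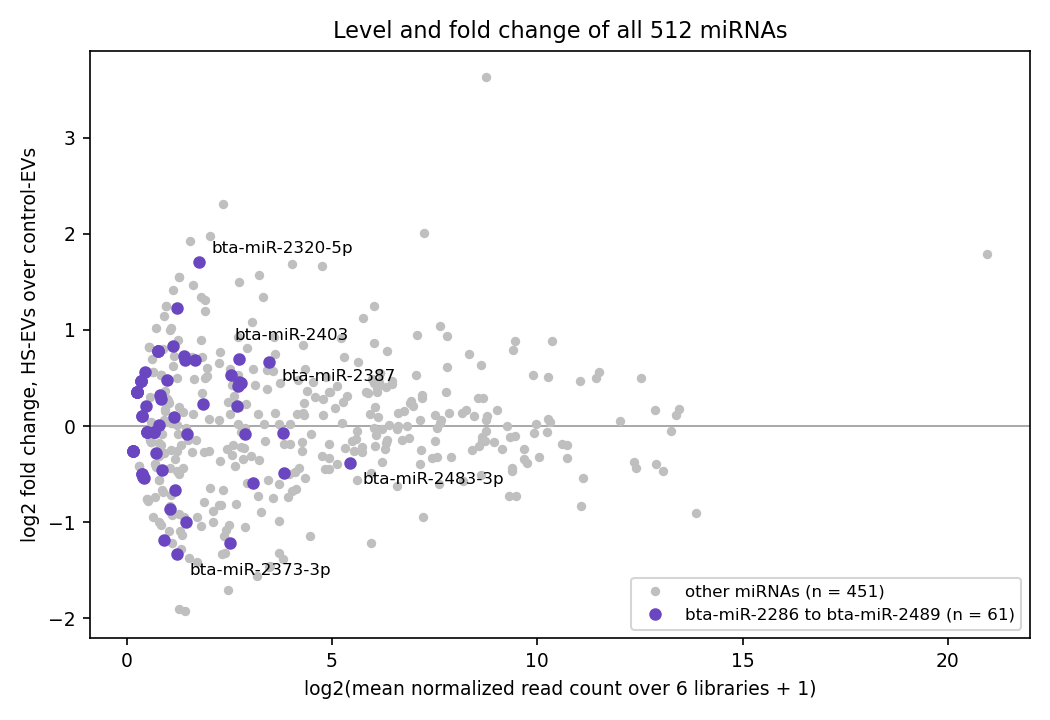
Log2 fold change of HS-EVs over control-EVs from limma (vertical axis) against log2(mean normalized read count over the 6 libraries + 1) (horizontal axis) for all 512 miRNAs, with the 61 from bta-miR-2286 to bta-miR-2489 in purple and the other 451 in grey. The purple points lie at the low end of the level axis, with bta-miR-2483-3p the farthest to the right, and 0 of them passed the threshold.

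With all 6 libraries, the 1 miRNA with an unadjusted p-value of 0.05 or less was bta-miR-2373-3p (limma adjusted p = 0.870). It was no longer among them without control-EVs replicate 1, control-EVs replicate 3, HS-EVs replicate 1 or HS-EVs replicate 3, nor in edgeR or DESeq2. It had 3.67, 1.39 and 1.98 normalized counts in control-EVs and 0, 1.10 and 0 in HS-EVs, from 2, 2 and 1 reads and from 0, 1 and 0 reads. All control-EVs libraries lay above all HS-EVs libraries, but no library exceeded the floor of 3 reads, and no fold change is given. The groups also did not overlap in bta-miR-2403, in the other direction. Its hairpin lies within SLC16A9, a gene of the monocarboxylate transporter family. It had 3.67, 2.79 and 5.93 normalized counts in control-EVs (2, 4 and 3 reads) and 8.22, 6.60 and 6.52 in HS-EVs (2, 6 and 4 reads), with means of 4.13 ± 1.62 and 7.11 ± 0.958 (SD, n = 3). The fitted log2 fold change was 0.70 ± 0.45 (SE, limma adjusted p = 0.873). The value of HS-EVs replicate 1 came from 2 reads and lay under the floor of 12.3 normalized counts of that library. On reads scaled by all reads, the groups overlapped and the log2 fold change was -0.42, above the median of -0.79 of all 512 miRNAs, and it was 0.79 with scaling to reads outside bta-miR-1246 and 0.66 with DESeq2 size factors. Non-overlapping groups were thus found in 2 of the 61 miRNAs (3.28%), 1 in each direction, beside 6.45% of the 512 (3.71% higher and 2.73% lower in HS-EVs).

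A fitted log2 fold change of at least 1 in either direction was found for 5 of the 61 (8.20%), beside 11.1% of the 512. The largest was that of bta-miR-2320-5p. It had 0, 1 and 0 reads in control-EVs and 0, 5 and 5 reads in HS-EVs, that is 0, 0.697 and 0 normalized counts against 0, 5.50 and 8.15. HS-EVs replicates 2 and 3 had the highest values, and no read was found in HS-EVs replicate 1, control-EVs replicate 1 or control-EVs replicate 3. The floors of these libraries were 12.3, 5.51 and 5.93 normalized counts, so that HS-EVs replicate 2 did not exceed what any of them could hold. The fitted log2 fold change was 1.71 ± 0.77 (SE, limma adjusted p = 0.873). The ratio of the scaled reads, summed over the libraries of a group, was 14.1, with a 95% counting interval of 2.0 to 611. This interval leaves out the spread between libraries. Without HS-EVs replicate 1 the log2 fold change was 2.69 ± 0.43 (SE, limma adjusted p = 0.241), past the threshold of the study. It was 1.34 without HS-EVs replicate 2 (limma adjusted p = 0.767) and 1.10 without HS-EVs replicate 3 (limma adjusted p = 0.899). This miRNA is on the study's list of EV miRNAs, which was drawn up on these libraries and is no independent evidence of its direction. bta-miR-2419-5p had 1.84, 6.97 and 11.9 normalized counts in control-EVs (1, 10 and 6 reads) and 0, 4.40 and 3.26 in HS-EVs (0, 4 and 2 reads). The groups overlapped, and its fitted log2 fold change was -1.22. The other 3 were bta-miR-2373-3p, bta-miR-2332 and bta-miR-2408, none of which had more than 2 reads in any library. bta-miR-2332, bta-miR-2408 and bta-miR-2419-5p were named after their values had been seen.

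The lists of differential miRNAs in the study hold 15 identifiers of this range, 14 for granulosa cells and bta-miR-2320-5p for EVs. Of the 15 identifiers, 7 were in the EV files. The lists reach beyond the thresholds of the study, which were not the same for cells and EVs. Of these 7, bta-miR-2320-5p, bta-miR-2389 and bta-miR-2397-3p did not pass the threshold of their list there. Libraries of the cells themselves were not analysed here. bta-miR-2447, within LIN54, which encodes a DNA-binding subunit of the cell cycle complex DREAM, had 2, 7 and 2 reads in control-EVs and 3, 1 and 4 in HS-EVs, and its fitted log2 fold change was 0.21 ± 0.65 (SE, limma adjusted p = 0.952). It turned to -0.37 without HS-EVs replicate 1, and to -1.09 on reads scaled by all reads, below the median of -0.79 of all 512 miRNAs. bta-miR-2448-3p had 0, 14 and 4 reads in control-EVs and 1, 5 and 4 in HS-EVs, that is 0, 9.76 and 7.90 normalized counts against 4.11, 5.50 and 6.52, so that all HS-EVs libraries lay between the lowest and the middle control-EVs library. bta-miR-2449, within IDUA, the gene of the lysosomal enzyme alpha-L-iduronidase, had 1, 5 and 0 reads in control-EVs and 0, 1 and 0 in HS-EVs, with a fitted log2 fold change of -0.87 ± 0.62 (SE, limma adjusted p = 0.873). Without control-EVs replicate 2, which held 5 of its 7 reads, the value was -0.40, and without control-EVs replicate 3 it was -1.48. bta-miR-2339, within the tRNA processing gene ELAC2, bta-miR-2389 and bta-miR-2397-3p, within the glutaredoxin gene GLRX3, had at most 3 reads in any library. The groups overlapped in all 7.

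The hairpins were located with RefSeq genes on ARS-UCD2.0, which is not the assembly used by the authors, so that no positions are given. All 52 hairpins matched a miRNA gene, on 22 chromosomes. The table holds no strand and no exons, so that a hairpin within the span of a gene may lie on either strand and in an exon or an intron. Of the 52 hairpins, 46 lay within the span of a protein-coding gene, 1 within a long noncoding RNA gene only and 5 within neither. Counted by identifier, 53 of the 61 miRNAs (86.9%) lay within a protein-coding gene, compared with 260 of the 441 other miRNAs that matched (59.0%). A further miRNA gene within 10 kb was found for 6 of the 61 identifiers (9.84%), compared with 181 of the 441 (41.0%). The host genes covered many functions, among them RPL3 for a ribosomal protein (bta-miR-2440), KMT2D for a histone methyltransferase (bta-miR-2426) and HTT for huntingtin, whose span held bta-miR-2450a and bta-miR-2450c with 1 read each. Neighbouring hairpins could differ widely in reads. The gene of bta-miR-2443 lies within 10 kb of MIRLET7A-3 and MIRLET7B, and bta-miR-2443 had 2 reads over the 6 libraries, where bta-let-7b had 34573. Similarly, bta-miR-2378 had 2 reads and its neighbour bta-miR-877 had 88, and bta-miR-2382-5p had 10 reads and its neighbour bta-miR-1842 had 78.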

How the data were processed

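According to the methods and the labels, the authors trimmed adapters with Cutadapt (1.11), collapsed reads with identical UMI, mapped them with Bowtie2 (2.2.2) to the bovine genome (UMD 3.1) and then to miRBase, and scaled the counts with edgeR's TMM factors. The deposited normalized read count of each miRNA and library was treated as a signal that is never negative. Divided by the lowest non-zero value of their library, taken as 1 read, all values (100%) came out whole within 0.000199. If the rarest miRNA had more than 1 read, the recovered reads are too low by that factor. The recovered totals were also above the reads that the study tabulates as mapped to annotated miRNAs in every EV library, for a reason not given in the sources used here, so that counting intervals may be too narrow. Intervals and floors (3 reads per library) cover counting error only.

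All 512 miRNAs were tested with limma (3.58.1, R 4.3.3; defaults, pseudocount 1, no filter, no block) with Benjamini-Hochberg adjustment, and p-values measure the spread between these libraries. edgeR (4.0.16) and DESeq2 (1.42.0) on recovered reads, other scalings, pseudocounts, a filter, a replicate block and leaving out each library were alternatives. The limma script was tested on simulated data, where at this threshold it missed many changed miRNAs and often made calls in sets without any change. No pair of libraries (15 pairs) was a duplicate, with chi-square statistics 16.5 to 116 times their degrees of freedom.

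The miRNAs, lists and alternatives were chosen with earlier results of these data known. Named were the 10 most abundant of the 61, up to 8 in each direction with an unadjusted p-value of 0.05 or less or with groups that did not overlap, those measured on both arms, those on the study's lists, and further examples chosen after their values were seen. A planned grouping by shared seed was not made, since no mature sequences were used here. Gene names came from RefSeq (ARS-UCD2.0).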

Additional observations from a re-analysis of the deposited data

How the results depend on the processing

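The number of the 61 miRNAs past the threshold of the study was 0 under every alternative over all 6 libraries and 0 to 1 with each library left out, the 1 being bta-miR-2320-5p without HS-EVs replicate 1. Over all 512 miRNAs, 3 passed it in edgeR, 2 in limma with trend, 1 with pseudocount 0.5, 4 without control-EVs replicate 2, 2 without HS-EVs replicate 1, 3 without HS-EVs replicate 2 and 0 otherwise. The number with an unadjusted p-value of 0.05 or less, 1 in limma, was 0 with reads scaled by all reads, DESeq2, pseudocount 5, pseudocount 10 or the filter, and 1 to 3 with each library left out. The 1 was bta-miR-2320-5p in edgeR, in limma with trend and without HS-EVs replicate 1, and bta-miR-2408 without control-EVs replicate 1. With the replicate number as a block it was 3 (bta-miR-2320-5p, bta-miR-2373-3p and bta-miR-2419-5p). For these alternatives the share over all 512 is not given here, and it was 4.88% in the main limma fit. The deviations of same-numbered libraries correlated by 0.14, 0.14 and 0.08, and all 6 libraries correlated best with their own number, a hint from the data and not from the design. The block changed no other call. The median log2 fold change of 0.10 was -0.24 on reads scaled by all reads, beside -0.79 over all 512. It was 0.32 in edgeR and 0.43 with DESeq2, beside -0.0071 and -0.014 over all 512. Over the 5 miRNAs left by the filter it was -0.38, beside 0.024 over all that the filter left. With each library left out it was 0.0 to 0.36. Non-overlapping groups were found in 1 miRNA on reads scaled by all reads, where bta-miR-2403 was lost, and in 0 after the filter.

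In control-EVs, 2 miRNAs were detected with 10 reads, 10 with 3 reads in 2 libraries, and 1 when all 3 libraries had to reach a normalized count of 10. In HS-EVs, 12 were detected with 3 reads in 2 libraries and 1 in all 3 libraries. The mean number per library was 11.3 and 10.3 (control-EVs, HS-EVs) with 3 or more reads, and 15.8 and 19.5 at an equal number of reads outside bta-miR-1246. The mean share, 0.0298% and 0.0160% of all reads, was 0.111% and 0.119% of reads outside bta-miR-1246, and with each library left out 0.0210% to 0.0342% in control-EVs and 0.0107% to 0.0231% in HS-EVs.

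When reads were scaled by all reads, fitted log2 fold changes were -0.28 for bta-miR-2387, -0.78 for bta-miR-2431-5p, -0.76 for bta-miR-2431-3p, -0.54 for bta-miR-2448-3p, -0.42 for bta-miR-2403 and -1.09 for bta-miR-2447. With scaling to reads outside bta-miR-1246 it was 0.026 for bta-miR-2346 and 0.0059 for bta-miR-2483-5p. For bta-miR-2448-3p it was -0.23 in edgeR's quasi-likelihood test and -0.23 in DESeq2. With each library left out, it ranged from -1.24 to 0.15 for bta-miR-2299-3p, -0.53 to 0.44 for bta-miR-2346, -1.43 to 0.56 for bta-miR-2366, -0.28 to 0.046 for bta-miR-2483-5p, -0.019 to 1.15 for bta-miR-2431-5p, -0.11 to 1.06 for bta-miR-2431-3p, -0.64 to 1.08 for bta-miR-2448-3p and -0.37 to 0.96 for bta-miR-2447, and without a change of sign from 1.10 to 2.69 for bta-miR-2320-5p. The causes of these shifts were not tested. With 3 reads or fewer in every library for 42 of the 61 miRNAs, depth left most of them without a fold change that could be read.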
